A study of Mus musculus with 12 samples.

Results

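The insulin-like growth factor (IGF) genes described here are Igf1, its receptor gene Igf1r, and the 7 IGF binding protein genes Igfbp1 to Igfbp7. They were taken by name, each of them whatever its values, as the rows of the count table whose Ensembl gene matched those symbols. The set itself was chosen with earlier results of these data known. All 9 were among the 53452 genes of the table, and 8 of them were among the 16036 genes with enough counts to be tested. Igfbp1 was not, and is given as counts.

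IGF1 is a secreted hormone that signals through a receptor tyrosine kinase, IGF1R, to the phosphoinositide 3-kinase and AKT pathway, which keeps FOXO transcription factors out of the nucleus. In the liver growth hormone drives IGF1 production, mostly in hepatocytes, while the receptor is carried mainly by non-parenchymal cells, stellate cells among them. The binding proteins are secreted carriers that hold most extracellular IGF, prolong its life in the circulation and limit or aid its access to the receptor.

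The libraries were RNA sequencing of cells called HSCs in the labels, from the liver of wild-type (WT) mice. That abbreviation, left unexplained there, is taken to mean hepatic stellate cells, which store vitamin A and wrap the liver sinusoids. Riociguat stimulates soluble guanylate cyclase, the nitric oxide receptor that makes cGMP, and DMSO is its solvent. Cells in every group were cultured for 12 h after isolation, given new medium and collected 24 h later. The 4 groups of 3 libraries were DMSO for the last 12 h, and riociguat for the last 6 h, the last 12 h or the whole 24 h. Riociguat thus went onto cells that had spent 18 h, 12 h and 0 h in the new medium for exposures of 6 h, 12 h and 24 h, and DMSO onto cells that had spent 12 h in it. Only riociguat 12 h and DMSO 12 h were matched in exposure, and the 3 comparisons with DMSO share the same DMSO libraries. The sources used here do not give the dose, or the strain, age and sex of the mice. They also do not say whether replicates are separate mice or isolations, so p-values measure the spread between these samples only, which may be technical.

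Library totals ran from 12953096 to 27358893 counts, the lowest and the highest both in the riociguat 6 h group. Levels are in CPM, the depth-scaled count unit, computed with TMM factors. The summed level of 13 stellate markers was 3111 to 3173 CPM in DMSO and 3462 to 3714 CPM at 24 h of riociguat, with Reln and Hgf among the genes that rose and Des among those that fell. The defining stellate marker Lrat was low but present, at 4.81 ± 1.84 CPM in DMSO and 9.08 ± 0.206 at 24 h (SD, n = 3). RNA of other liver cells was present in every group. The 10 hepatocyte markers summed to 1418 to 1487 CPM in DMSO, 1211 to 1379 at 6 h, 1349 to 1655 at 12 h and 699 to 973 at 24 h, and the 10 endothelial markers to 1697 to 1837, 1831 to 1958, 1589 to 1695 and 1540 to 1583 CPM in the same order. The 10 portal fibroblast and mesothelial markers summed to 873 to 957 CPM in DMSO, 762 to 776 at 6 h, 882 to 912 at 12 h and 815 to 839 at 24 h. The 8 cholangiocyte markers summed to 653 to 702, 611 to 650, 749 to 858 and 1057 to 1098 CPM in the same order. At 24 h Spp1 alone of these 8 rose, from 266 to 732 CPM, Cldn4 fell from 115 to 85.0 CPM and the median log2 fold change of the 7 tested was -0.14. The 10 macrophage markers summed to at most 75.5 CPM and the 8 lymphocyte markers to at most 4.2 CPM in any library. The macrophage marker Timd4 was at 0 in all libraries of the 6 h and 24 h groups. It was near the limit of detection elsewhere too, with 5 counts in all in DMSO and 5 at 12 h. The 10 macrophage markers together gave 64.9 to 75.5 CPM in DMSO and 71.5 to 75.4 CPM at 12 h. Together they gave 65.3 to 70.4 CPM at 6 h and 65.7 to 71.3 CPM at 24 h, within the DMSO range. In bulk samples fewer cells of a type and less RNA per cell cannot be told apart, and this holds for every difference below.

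At matched exposure of 12 h, the receptor gene Igf1r fell by 0.47 on the log2 scale (to 0.723-fold). The binding protein gene Igfbp7 fell by 0.25 (to 0.839-fold), just inside the threshold (adjusted p = 0.0491) and lost under 11 of 17 other settings tried. Igf1 and the other 5 tested binding protein genes did not pass the test. At 24 h of riociguat Igf1r, Igfbp2, Igfbp4 and Igfbp7 fell and Igfbp5 rose. At 6 h only Igfbp7 passed, and it fell. A gene is called when its adjusted p is under 0.05 in edgeR's quasi-likelihood test with Benjamini-Hochberg adjustment over all 16036 tested genes, and adjusted p-values below are from that test unless another is named.

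Of the 8 tested genes, 0 were called higher and 2 lower at 12 h, where 2.18% and 3.48% of all tested genes were called. DESeq2 made the same 0 and 2 calls there, as did an unadjusted p under 0.05. At 6 h, 0 were higher and 1 lower, beside 4.48% and 5.24% of all genes. DESeq2 called 0 higher and 2 lower there, beside 864 and 946 of all tested genes, and 0 and 4 had an unadjusted p under 0.05. At 24 h, 1 was higher and 4 were lower, beside 5.94% and 7.41% of all genes. Their median log2 fold change was -0.01 at 12 h, -0.15 at 6 h and -0.22 at 24 h, against -0.01 to 0.00 over all tested genes. The riociguat and DMSO libraries did not overlap for 2 of the 8 genes at 12 h, 3 at 6 h and 7 at 24 h, against 22.4%, 25.7% and 28.3% of all tested genes. Shares of genes called, here and below, are of edgeR calls. No share is given for an unadjusted p under 0.05, a looser limit that more genes pass, so those counts have no background here.

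**Figure D1:**
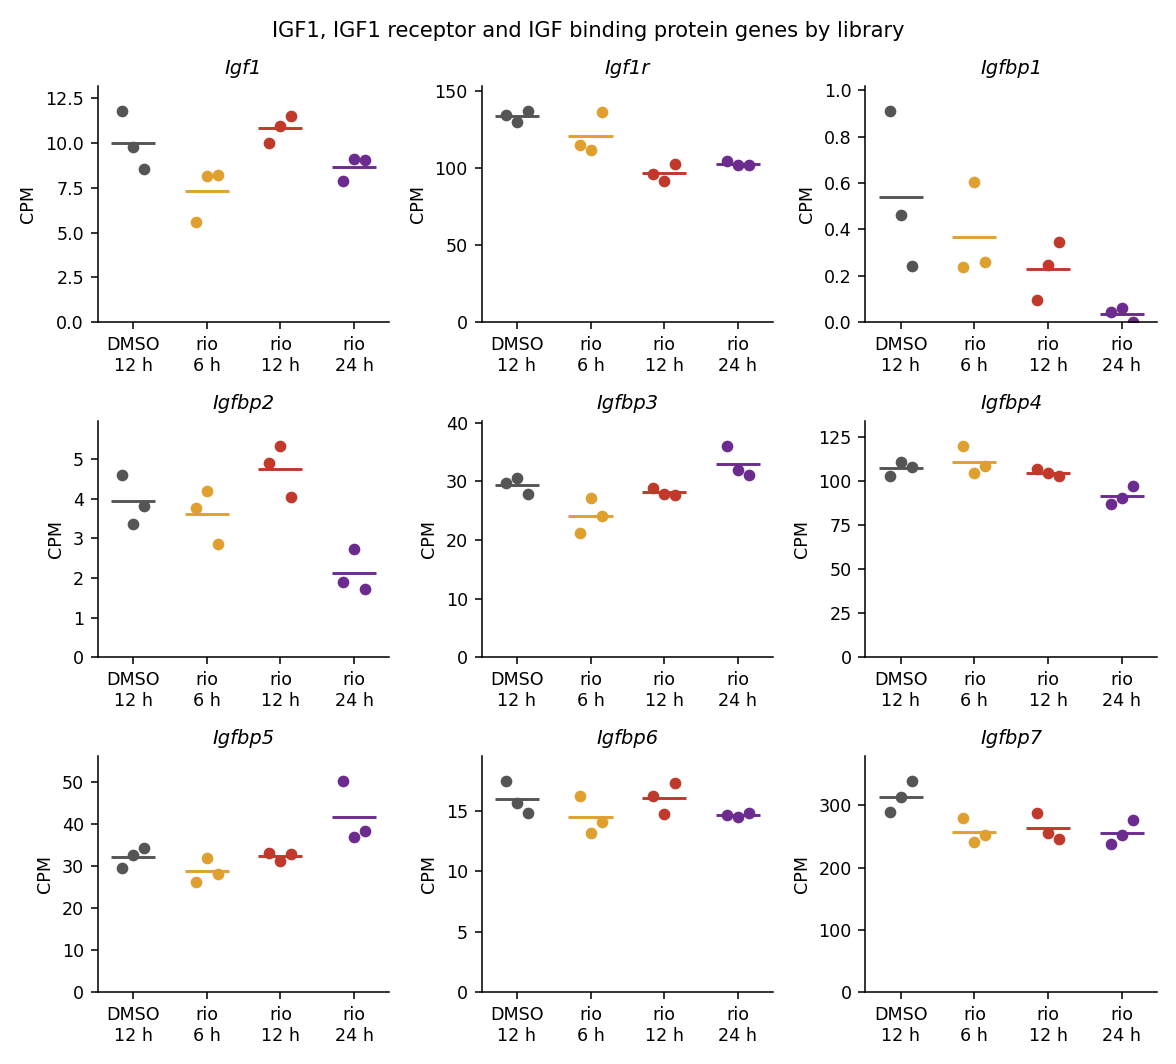
CPM of each of the 9 genes in each of the 12 libraries, by group. Points are libraries, from replicate 1 on the left to replicate 3 on the right, lines are group means of 3 libraries, and each axis starts at 0. The Igf1r points at riociguat 12 h (91.3 to 102 CPM) and 24 h (102 to 104 CPM) lie below all DMSO points (129.6 to 137 CPM).

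Levels can be compared between genes only per length, here as CPM per kilobase of the merged exons of each gene. Igfbp7 was by far the most abundant of the 9 transcripts, at 259.6 ± 20.4 CPM per kilobase in DMSO (SD, n = 3). Igfbp4 followed at 24.3 ± 0.905, then Igfbp6 at 14.3 ± 1.20, Igfbp3 at 9.38 ± 0.451 and Igf1r at 7.96 ± 0.223. Igfbp5 stood at 5.34 ± 0.406, Igfbp2 at 2.13 ± 0.335, Igf1 at 1.01 ± 0.165 and Igfbp1 at 0.353 ± 0.223 CPM per kilobase. With merged exons, no 2 neighbours in this order overlapped between DMSO libraries. The ranks of Igfbp7, Igfbp4, Igfbp2, Igf1 and Igfbp1 were the same in all 4 groups, and with the length of the longest transcript in place of merged exons. At 24 h of riociguat Igfbp5 stood above Igf1r, at 6.95 against 6.11 CPM per kilobase, but below it with the longest transcript, at 6.95 against 8.99, and their libraries overlapped with merged exons. The libraries of Igfbp3 and Igf1r also overlapped at 6 h, at 6.76 to 8.69 and 6.65 to 8.13 CPM per kilobase. With the longest transcript Igf1r stood above Igfbp3 at 6 h, at 10.6 against 9.98. With that length Igfbp3 stood above Igfbp6 at 24 h, at 13.6 against 13.2.

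**Figure D2:**
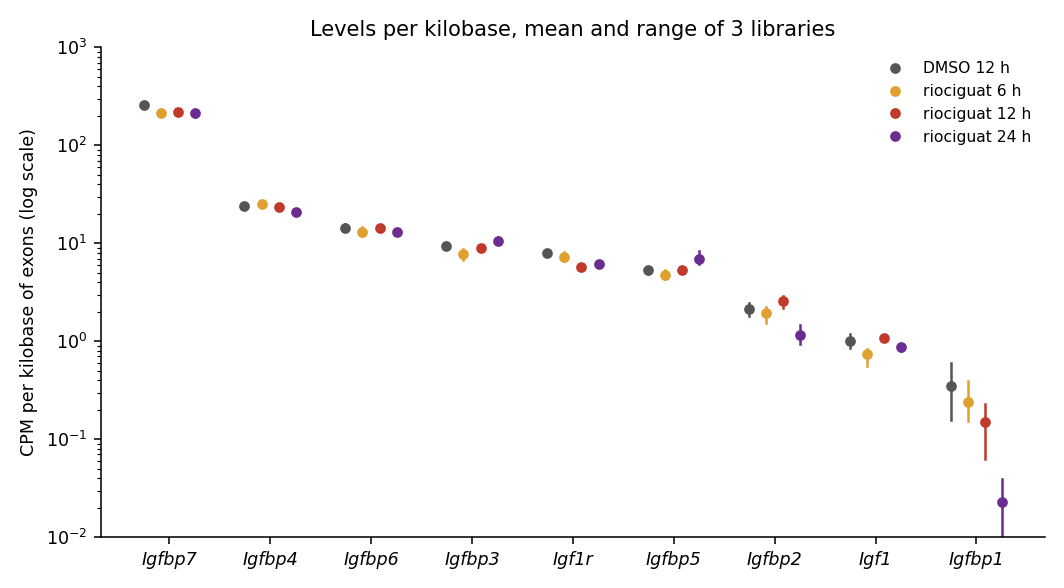
Level of each gene in CPM per kilobase of merged exons, on a log axis, in the 4 groups. Points are means of 3 libraries and bars run from the lowest to the highest library. Igfbp7 stands at 211 to 260 in every group, and the Igfbp1 bar at 24 h runs off the axis because 1 library is at 0.

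Igf1 encodes the ligand and lies at chr10:87858265-87937042 on the plus strand (ENSMUSG00000020053, GRCm38). It was a low transcript, at 11.8, 9.77 and 8.52 CPM in the DMSO libraries, from 654 counts in all. It stood at 5.58, 8.14 and 8.23 CPM at 6 h, at 10.02, 10.9 and 11.5 at 12 h, and at 7.88, 9.08 and 9.05 at 24 h. All 6 h libraries were below all DMSO libraries, and the 12 h and 24 h libraries overlapped with DMSO. None of the 3 differences passed the test. On the log2 scale the difference was 0.11 ± 0.15 (SE) at 12 h. The 95% interval ran from -0.20 to 0.42, so falls and rises within those limits were not excluded. The difference was -0.43 ± 0.15 at 6 h (adjusted p = 0.0914) and -0.21 ± 0.15 at 24 h (adjusted p = 0.415).

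Igf1r encodes the receptor (ENSMUSG00000005533, chr7:67952827-68233668, plus strand). The DMSO libraries held 135, 129.6 and 137 CPM, and the 12 h riociguat libraries 96.4, 91.3 and 102 CPM. The 24 h libraries held 104, 102 and 102 CPM. Both sets lay wholly below DMSO. Its log2 fold change was -0.47 ± 0.07 at 12 h (adjusted p = 0.000154) and -0.38 ± 0.07 at 24 h (adjusted p = 0.000663). Both calls held under all 17 other settings tried, with an adjusted p of at most 0.0024 at 12 h and 0.00586 at 24 h. At 6 h the libraries held 115, 112 and 137 CPM, the third of them within the DMSO range, and the log2 fold change of -0.14 ± 0.06 did not pass (adjusted p = 0.204). Without riociguat 6 h replicate 3 it was -0.24 and passed (adjusted p = 0.0161). Between exposures, Igf1r was lower at 12 h than at 6 h by 0.33 ± 0.07 on the log2 scale (adjusted p = 0.00471).

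The closest receptor paralog, the insulin receptor gene Insr, did not move the same way. It stood at 57.7 ± 2.09 CPM in DMSO, 67.4 ± 1.84 at 6 h, 61.3 ± 3.76 at 12 h and 61.5 ± 4.70 at 24 h (SD, n = 3 each). Insr rose at 6 h (log2 fold change 0.23 ± 0.06, adjusted p = 0.0321) and did not pass at 12 h or 24 h. Leaving out DMSO replicate 2 (adjusted p = 0.138) or 3 (0.0643) ended that call, as did leaving out riociguat 6 h replicate 2 (0.122) or 3 (0.0794). The ratio of Igf1r to Insr counts, chosen after their values were seen and so given with no test, was 2.32 ± 0.0366 in DMSO, 1.80 ± 0.217 at 6 h, 1.58 ± 0.159 at 12 h and 1.67 ± 0.128 at 24 h.

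Igfbp7 encodes a secreted protein that binds IGFs weakly, is deposited in matrix and is abundant in vascular and perivascular cells (ENSMUSG00000036256, chr5:77349240-77408041, minus strand). The DMSO libraries held 289, 314 and 338 CPM. The 6 h libraries held 279.8, 241 and 253 CPM, the 12 h libraries 287, 256 and 246, and the 24 h libraries 238, 252 and 277. Every riociguat library was below every DMSO library, by a small margin at 12 h. Igfbp7 had a log2 fold change of -0.29 ± 0.07 at 6 h (adjusted p = 0.0179), -0.25 ± 0.07 at 12 h (adjusted p = 0.0491) and -0.30 ± 0.07 at 24 h (adjusted p = 0.0107). No difference in Igfbp7 between riociguat groups passed, with log2 values of -0.04 to 0.03. Of 10 endothelial markers, which mark another cell type that expresses Igfbp7, 0 were higher and 1 lower at 12 h (by DESeq2 also, with 1 and 2 at an unadjusted p under 0.05), 4 and 1 at 6 h, and 2 and 4 at 24 h, and their part in the Igfbp7 and Igf1r differences was not tested. Of all tested genes, 2.18% were higher and 3.48% lower at 12 h. Those shares were 4.48% and 5.24% at 6 h, and 5.94% and 7.41% at 24 h.

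Whether Igfbp7 passed the threshold depended on which libraries were in the fit, while its log2 fold change stayed negative. In the fits without a library it was -0.31 to -0.19 at 12 h, -0.35 to -0.23 at 6 h and -0.35 to -0.23 at 24 h. At 12 h the call was lost under 11 of 17 settings, among them RLE size factors (adjusted p = 0.0540) and 9 of the 12 fits that leave out a library. Those were without DMSO replicate 2 (adjusted p = 0.148) or 3 (0.287), riociguat 12 h replicate 2 (0.220) or 3 (0.237), riociguat 6 h replicate 2 (0.0514) or 3 (0.0627), and riociguat 24 h replicate 1 (0.0511), 2 (0.0763) or 3 (0.05002). Leaving out DMSO replicate 2 (0.0600) or 3 (0.107) ended the 6 h call, as did leaving out riociguat 6 h replicate 2 (0.102) or 3 (0.0700). Leaving out DMSO replicate 3 (0.0835) or riociguat 24 h replicate 1 (0.0760) ended that at 24 h. Igfbp7 shares 85 exon bases with Polr2b on the opposite strand, and the sources used here do not say how strand was handled. Polr2b, an RNA polymerase subunit gene, was at 111 CPM in DMSO and its log2 fold changes were 0.02, 0.04 and 0.04 at 12 h, 6 h and 24 h, none of them called.

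**Figure D3:**
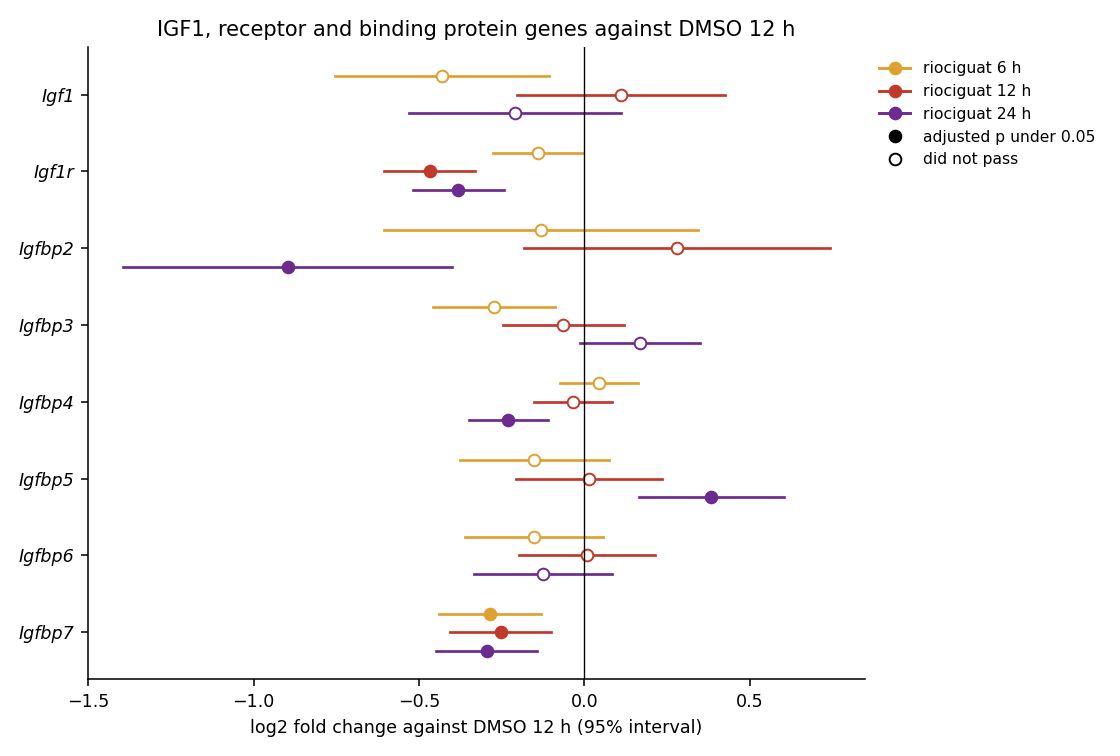
Log2 fold change of the 8 tested genes against DMSO 12 h at each riociguat exposure, with 95% intervals. Filled points have an adjusted p under 0.05. Igf1r at 12 h (-0.47) and 24 h (-0.38) and Igfbp7 at all 3 exposures (-0.25 to -0.30) lie to the left, and Igfbp5 at 24 h (0.38) is the filled point to the right.

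The RefSeq promoter windows run from 250 bases before to 50 bases after the annotated start. They are shown for Igf1r and Igfbp7 because these are the 2 genes of the set called lower at matched exposure, Igfbp7 only just. All 9 genes matched the RefSeq table of GRCm38.p6. Capitals mark matches, on either strand, to GGGCGG (the GC box), TGACG (the core of the cAMP response element), GGAATG (the TEAD motif), GCGTG (the aryl hydrocarbon receptor core) or TATAAA (the TATA box). A match on the opposite strand appears as the reverse complement. The windows are chr7:67952007-67952306 on the plus strand for Igf1r, which ends before the start of the gene in the GENCODE annotation, and chr5:77407996-77408295 on the minus strand for Igfbp7.

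Igf1r: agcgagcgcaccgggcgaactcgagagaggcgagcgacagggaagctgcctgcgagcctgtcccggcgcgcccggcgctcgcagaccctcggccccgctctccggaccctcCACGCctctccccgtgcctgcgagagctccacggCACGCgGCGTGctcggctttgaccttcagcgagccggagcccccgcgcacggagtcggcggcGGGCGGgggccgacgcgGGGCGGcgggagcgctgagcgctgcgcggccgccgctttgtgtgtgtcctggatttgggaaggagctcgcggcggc
Igfbp7: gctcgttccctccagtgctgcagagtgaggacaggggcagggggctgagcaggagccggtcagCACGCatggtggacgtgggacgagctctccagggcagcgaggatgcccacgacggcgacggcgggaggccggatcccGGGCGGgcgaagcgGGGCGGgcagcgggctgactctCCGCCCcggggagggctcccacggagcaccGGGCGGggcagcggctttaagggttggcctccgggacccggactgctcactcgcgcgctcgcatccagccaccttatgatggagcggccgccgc

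Igf1r held 2 GC boxes and 3 GCGTG matches, and Igfbp7 held 4 GC boxes and 1 GCGTG match. Of all 32851 promoter windows of that length, 35.7% held a GC box and 32.4% a GCGTG match. Both windows were GC rich, at 76.0% and 73.3%, at the 96.9 and 94.5 percentile of all windows, whose median was 52.7%. Igfbp3 and Igfbp4, at 71.7% and 71.3%, were also GC rich and were not called at 12 h. TGACG was in 20.8% of all windows and in 0 of the windows of the 9 genes.

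Igfbp2 encodes a carrier made by hepatocytes and other cells (ENSMUSG00000039323, chr1:72824503-72852474, plus strand). It was low, at 4.59, 3.37 and 3.82 CPM in DMSO, from 255 counts. It stood at 3.77, 4.19 and 2.85 CPM at 6 h, at 4.89, 5.32 and 4.05 at 12 h, and at 1.90, 2.73 and 1.73 at 24 h. All 24 h libraries were below the other 9 libraries. The log2 fold change was -0.90 ± 0.24 at 24 h (0.537-fold, adjusted p = 0.0164), 0.28 ± 0.22 at 12 h (adjusted p = 0.594) and -0.13 ± 0.22 at 6 h (adjusted p = 0.792). With riociguat 24 h replicate 1 or 3 left out, the 24 h difference did not pass (adjusted p = 0.0686 and 0.0790). Igfbp2 was also lower at 24 h than at 12 h of riociguat, by 1.18 ± 0.23 on the log2 scale (adjusted p = 0.00716), a call that held under all 17 settings.

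Hepatocyte marker genes fell at the same exposure. Of 10 hepatocyte markers 9 were lower and 0 higher at 24 h, with a median log2 fold change of -0.81, and none was called at 12 h or 6 h, by edgeR or by DESeq2, with 0 and 2 at an unadjusted p under 0.05. Of all tested genes, 7.41% were lower and 5.94% higher at 24 h. Alb, the albumin gene, fell from 837 ± 16.4 to 467 ± 75.1 CPM (SD, n = 3; log2 fold change -0.84, adjusted p = 7.19e-06). Hnf4a, the marker not called at 24 h, stood at 10.5 ± 1.03 CPM in DMSO and 10.2 ± 1.07 at 24 h. Per 1000 counts of the 10 markers, a ratio chosen after the values were seen, Igfbp2 gave 2.71 ± 0.378 counts in DMSO, 2.81 ± 0.395 at 6 h, 3.26 ± 0.281 at 12 h and 2.53 ± 0.259 at 24 h. The 24 h libraries, at 2.29 to 2.80, overlapped with DMSO, at 2.33 to 3.09. Alb was most of the marker sum, at 837 of a mean 1450 CPM in DMSO. The part of hepatocyte RNA in the Igfbp2 difference was not tested.

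**Figure D4:**
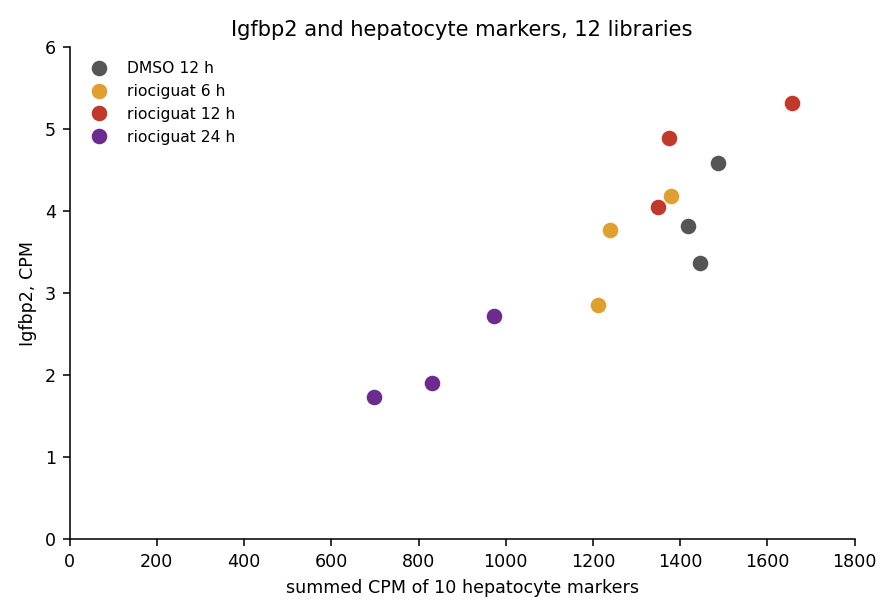
Igfbp2 (CPM) against the summed CPM of 10 hepatocyte markers in the 12 libraries, 1 point per library. The 3 libraries of riociguat 24 h lie lowest on both axes, at 1.73 to 2.73 CPM of Igfbp2 and 699 to 973 CPM of the markers.

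Igfbp1 encodes a binding protein of hepatocytes whose gene insulin represses through FOXO1 (ENSMUSG00000020429, chr11:7197782-7202546, plus strand). It was near the limit of detection in every library. Its counts were 19, 11 and 5 in DMSO, 3, 13 and 7 at 6 h, 2, 6 and 7 at 12 h, and 1, 1 and 0 at 24 h. The 24 h libraries were below all DMSO libraries, and those of 6 h and 12 h overlapped with DMSO. Summed over each group and set against library size, the ratio to DMSO was 0.0631 at 24 h (2 against 35 counts, exact 95% interval 0.00735 to 0.246), 0.430 at 12 h (15 counts, 0.218 to 0.807) and 0.701 at 6 h (23 counts, 0.396 to 1.22). These intervals cover counting error only. In a fit with no low-count filter the 24 h difference passed (adjusted p = 0.0067) and the 12 h difference did not (adjusted p = 0.701). In the 10 fits without a library in which Igfbp1 passed the filter, the 24 h adjusted p was 0.0109 to 0.0573, the highest without riociguat 24 h replicate 3. Without DMSO replicate 1 or riociguat 6 h replicate 2, the libraries with 19 and 13 counts, Igfbp1 did not pass the filter. It entered those 10 fits through its highest libraries, so their adjusted p-values are no further support for a fall. The 24 h group is the group in which the hepatocyte markers were lowest, and their part in the Igfbp1 difference was not tested.

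Igfbp5 and Igfbp3 encode the carriers that can join the acid-labile subunit in the large circulating IGF complex. Igfbp5 (ENSMUSG00000026185, chr1:72857932-72874884, minus strand) stood at 29.4, 32.6 and 34.2 CPM in DMSO and at 50.1, 36.8 and 38.3 CPM at 24 h. All 24 h libraries were above DMSO, and replicate 1 stood apart from the other two. The log2 fold change was 0.38 ± 0.10 at 24 h (30.4% higher, adjusted p = 0.0201). Without riociguat 24 h replicate 1 it was 0.24 and did not pass (adjusted p = 0.114), nor did it with DMSO replicate 1 (0.0581) or 2 (0.0566) left out. At 12 h the libraries held 33.1, 31.1 and 32.9 CPM and at 6 h 26.3, 31.9 and 28.2 CPM, neither of them called against DMSO.

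Igfbp3 (ENSMUSG00000020427, chr11:7206086-7213923, minus strand) stood at 29.7, 30.5 and 27.8 CPM in DMSO. It stood at 21.2, 27.2 and 24.1 CPM at 6 h, 28.8, 27.8 and 27.7 at 12 h, and 36.0, 32.0 and 31.0 at 24 h. The 6 h libraries were all below and the 24 h libraries all above DMSO, yet neither difference passed. Igfbp3 had a log2 fold change of -0.27 ± 0.09 at 6 h (adjusted p = 0.0598), -0.06 ± 0.09 at 12 h (adjusted p = 0.79) and 0.17 ± 0.09 at 24 h (adjusted p = 0.224). The 6 h difference passed with DESeq2 (adjusted p = 0.0442), with no low-count filter (0.0488) and without riociguat 6 h replicate 2 (-0.37, adjusted p = 0.0232). Taken between riociguat exposures, Igfbp3 was higher at 24 h than at 6 h by 0.44 ± 0.09 on the log2 scale (adjusted p = 0.00185), and Igfbp5 by 0.53 ± 0.11 (adjusted p = 0.00178). Both of those calls held under all 17 settings.

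Igfbp4 encodes a binding protein that holds IGF until the protease PAPP-A cuts it (ENSMUSG00000017493, chr11:99041244-99054392, plus strand). It stood at 103, 111 and 108 CPM in DMSO, 119.7, 104 and 108 at 6 h, 107, 105 and 103 at 12 h, and 86.8, 90.5 and 96.9 at 24 h. The 24 h libraries were below all others. The log2 fold change was -0.23 ± 0.06 at 24 h (0.852-fold, adjusted p = 0.0108), 0.04 ± 0.06 at 6 h and -0.03 ± 0.06 at 12 h, the last with a 95% interval of -0.15 to 0.08. Leaving out DMSO replicate 2 (adjusted p = 0.0614) or 3 (0.0510), or riociguat 24 h replicate 1 (0.0792), ended the 24 h call.

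Igfbp6 encodes the binding protein that prefers IGF2 (ENSMUSG00000023046, chr15:102144362-102149511, plus strand). It stood at 17.4, 15.6 and 14.8 CPM in DMSO, 16.2, 13.1 and 14.0 at 6 h, 16.2, 14.7 and 17.2 at 12 h, and 14.6, 14.5 and 14.8 at 24 h. It was called in none of the 6 comparisons. Its log2 fold change was 0.01 ± 0.10 at 12 h, with a 95% interval of -0.20 to 0.21.

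Binding protein genes also lie side by side. Igfbp2 and Igfbp5 are neighbours on chromosome 1, tail to tail with 5457 bases between them, and at 24 h Igfbp2 fell while Igfbp5 rose. Neither was called at 6 h, at -0.13 and -0.15 on the log2 scale, or at 12 h, at 0.28 and 0.01. Igfbp1 and Igfbp3 are neighbours on chromosome 11, tail to tail with 3539 bases between them, with 2 counts of Igfbp1 at 24 h and Igfbp3 12.5% above DMSO with no call. The windows of the chromosome 1 pair are shown because their starts lie at opposite ends of the locus, at chr1:72824230-72824529 on the plus strand for the first of 2 RefSeq windows of Igfbp2 and chr1:72874816-72875115 on the minus strand for Igfbp5. Capitals mark the same 5 motifs.

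Igfbp2: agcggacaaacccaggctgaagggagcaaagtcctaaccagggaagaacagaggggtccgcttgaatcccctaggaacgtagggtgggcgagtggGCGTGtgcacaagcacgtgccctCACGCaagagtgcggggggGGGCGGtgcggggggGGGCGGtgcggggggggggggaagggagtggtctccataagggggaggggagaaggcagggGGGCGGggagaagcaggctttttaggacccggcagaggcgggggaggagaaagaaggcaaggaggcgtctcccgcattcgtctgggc
Igfbp5: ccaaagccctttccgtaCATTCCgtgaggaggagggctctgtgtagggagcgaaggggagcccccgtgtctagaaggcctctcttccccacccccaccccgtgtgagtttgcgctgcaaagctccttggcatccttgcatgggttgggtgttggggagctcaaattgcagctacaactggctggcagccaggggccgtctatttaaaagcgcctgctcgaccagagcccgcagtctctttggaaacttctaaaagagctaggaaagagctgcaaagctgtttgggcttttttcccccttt

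Igfbp2 held 3 GC boxes and 2 GCGTG matches. Igfbp5 held a single GGAATG match, a motif in 14.7% of all windows, and none of the other 4 motifs. The GC content was 67.0% and 56.3%. TATAAA was in the windows of Igfbp4 and Igfbp6 and in 13.6% of all windows.

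Between riociguat exposures the starting time in culture differed as well as the length of exposure. From 6 h to 12 h, 1 of the 8 genes was higher, Igf1, and 1 was lower, Igf1r, beside 2.57% and 3.52% of all tested genes. Igf1 was higher by 0.54 ± 0.15 on the log2 scale (adjusted p = 0.0437), and this call was lost under 10 of 17 settings. Among the fits without a library, they were those without riociguat 6 h replicate 1 (adjusted p = 0.153), 2 (0.0567) or 3 (0.0610), riociguat 12 h replicate 1 (0.0623), 2 (0.126) or 3 (0.137), DMSO replicate 2 (0.0586) and riociguat 24 h replicate 2 (0.0526) or 3 (0.0520). From 12 h to 24 h, 0 were higher and 1, Igfbp2, was lower, beside 1.37% and 1.71%. DESeq2 called 1 higher and 2 lower there, and 2 and 3 had an unadjusted p under 0.05, while the shares given are of edgeR calls only. Igfbp5 at 0.37 ± 0.10 (adjusted p = 0.0668) and Igfbp4 at -0.20 ± 0.06 (adjusted p = 0.0745) were just outside.

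From 6 h to 24 h, Igfbp3 and Igfbp5 were higher and Igf1r, Igfbp2 and Igfbp4 were lower, 2 and 3 of 8 genes, beside 7.16% and 8.13% of all tested genes. Igfbp4 was lower by 0.27 ± 0.06 on the log2 scale (adjusted p = 0.00263). Igf1r was lower by 0.24 ± 0.07 (adjusted p = 0.0179), which was lost without riociguat 6 h replicate 3 (-0.14, adjusted p = 0.132) or riociguat 24 h replicate 2 (0.0623) or 3 (0.0714). Igfbp2 was lower by 0.77 ± 0.24 (adjusted p = 0.0376), which was lost without riociguat 6 h replicate 1 (0.0871) or 2 (0.143), riociguat 24 h replicate 1 (0.119) or 3 (0.147), riociguat 12 h replicate 1 (0.0511), and with only the 6 libraries compared (0.0789).

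Of 11 other IGF system genes 10 were tested. At 12 h, 1 was higher and 0 lower, at 6 h 1 and 2, and at 24 h 1 and 2. Of all tested genes, 2.18% were higher and 3.48% lower at 12 h. Those shares were 4.48% and 5.24% at 6 h, and 5.94% and 7.41% at 24 h. DESeq2 called 1 and 0, 1 and 2, and 1 and 0 of the list at 12 h, 6 h and 24 h. The median log2 fold change was 0.09, -0.37 and 0.04. At an unadjusted p under 0.05, the counts were 1 and 1, 1 and 2, and 2 and 3. The largest difference among those called was in Stc1, the gene of stanniocalcin, which inhibits PAPP-A. It stood at 3.33 to 3.97 CPM in DMSO, 1.73 to 3.52 at 6 h, 4.70 to 7.14 at 12 h and 9.64 to 12.2 at 24 h, with no overlap between DMSO and 12 h or 24 h. Stc1 rose at 24 h by 1.60 ± 0.22 on the log2 scale (adjusted p = 6.26e-05), a call that held under all 17 settings. At 12 h it was 0.77 ± 0.22 (adjusted p = 0.0487), lost under 9 of 17 settings. Of the fits without a library, these were without DMSO replicate 2 (0.181) or 3 (0.149), riociguat 12 h replicate 2 (0.235) or 3 (0.133), riociguat 6 h replicate 2 (0.0527) and riociguat 24 h replicate 1 (0.0528), 2 (0.0634) or 3 (0.0591).

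At 6 h Htra1, a secreted protease that cuts IGF binding proteins, fell from 32.6 ± 1.47 to 21.5 ± 0.962 CPM (SD, n = 3; log2 fold change -0.60 ± 0.07, adjusted p = 1.53e-05). Igf2r, the receptor that takes up and degrades IGF2, fell at 6 h from 178 ± 2.08 to 144 ± 4.55 CPM (-0.31, adjusted p = 7.12e-05). Both calls held under all 17 settings. At 24 h they were lower by 0.21 (adjusted p = 0.0448) and 0.13 (adjusted p = 0.0445), and each of those calls was lost under 16 of 17 settings. Igf2, Igfals (the acid-labile subunit), Pappa, Pappa2, Stc2 and Igfbpl1 were not called against DMSO at any exposure, and Insrr was too low to test.

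**Figure D5:**
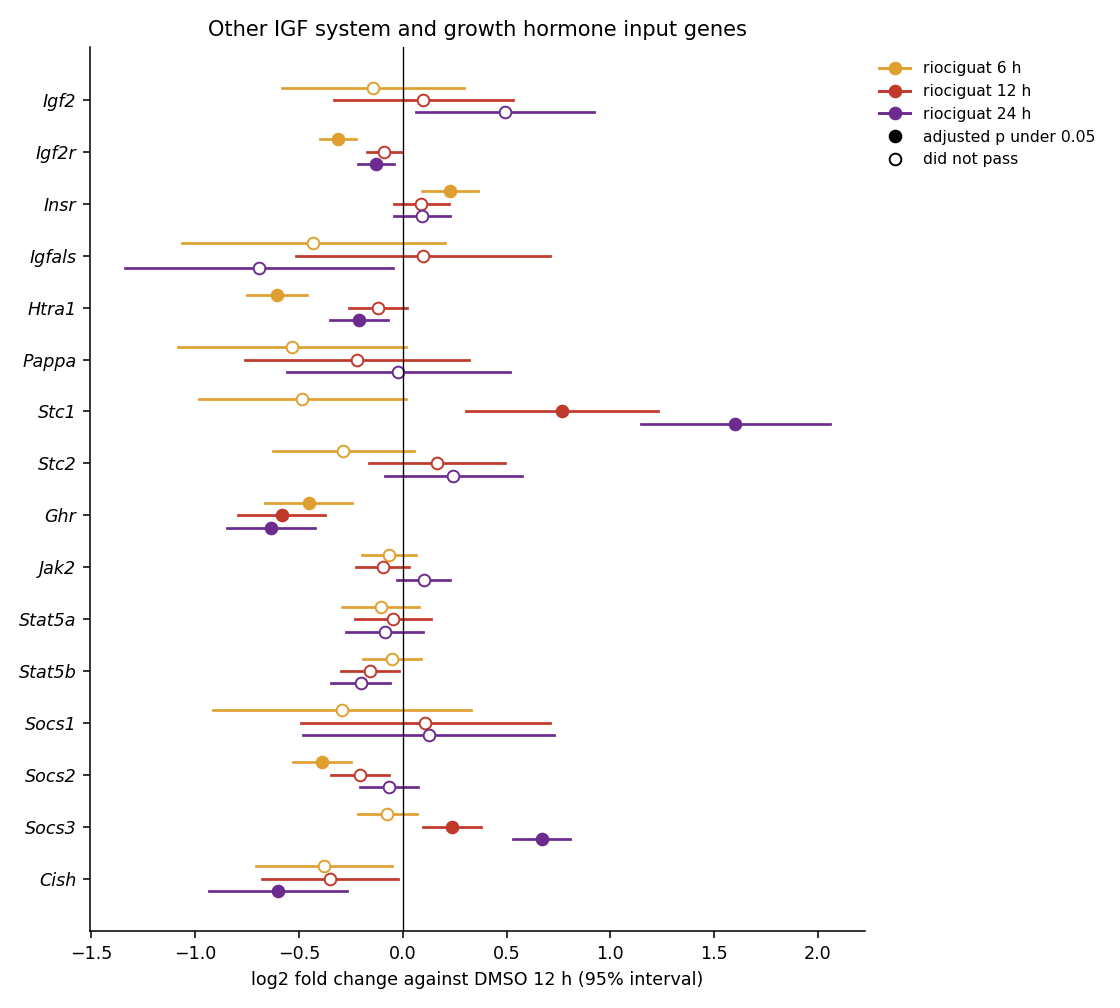
Log2 fold change against DMSO 12 h, with 95% intervals, of other IGF system genes and growth hormone input genes at each riociguat exposure. Filled points have an adjusted p under 0.05. Ghr is filled at all 3 exposures (-0.45 to -0.63), and Stc1 at 24 h (1.60) lies farthest right.

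The growth hormone receptor gene Ghr fell at every exposure. It stood at 54.9 to 63.4 CPM in DMSO, 38.0 to 49.3 at 6 h, 37.2 to 43.6 at 12 h and 33.1 to 41.4 at 24 h, with every riociguat library below every DMSO library. The log2 fold change was -0.45 ± 0.10 at 6 h (adjusted p = 0.00656), -0.58 ± 0.10 at 12 h (adjusted p = 0.000975) and -0.63 ± 0.10 at 24 h (adjusted p = 0.000291), and all of these held under the 17 settings. Of the 8 genes of the growth hormone, JAK and STAT list, 1 was higher and 1 lower at 12 h, 0 and 2 at 6 h, and 1 and 2 at 24 h. DESeq2 made the same counts. Of all tested genes, edgeR called 2.18% higher and 3.48% lower at 12 h. Those shares were 4.48% and 5.24% at 6 h, and 5.94% and 7.41% at 24 h. At an unadjusted p under 0.05, 1 of the 8 was higher and 4 lower at 12 h, 0 and 3 at 6 h, and 1 and 3 at 24 h.

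Socs3, a feedback inhibitor of cytokine receptors, rose at 24 h from 42.7 ± 1.88 to 68.0 ± 3.39 CPM (log2 fold change 0.67, adjusted p = 1.95e-06). At 12 h it was 0.24 (adjusted p = 0.0412), lost under 8 of 17 settings, 6 of them the fits without DMSO replicate 2 (0.179) or 3 (0.135), riociguat 12 h replicate 1 (0.0578), 2 (0.213) or 3 (0.0575) or riociguat 6 h replicate 2 (0.0502). The STAT5 target and feedback gene Socs2 fell at 6 h by 0.39 (adjusted p = 0.00102) and stood at -0.07 at 24 h. Cish, another, fell at 24 h by 0.60 (adjusted p = 0.0166), which did not pass with DMSO replicate 3 (0.107) or riociguat 24 h replicate 1 (0.0930) left out. Jak2, Stat5a, Stat5b and Socs1 were not called.

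Downstream of the receptor, 22 of 23 listed signalling genes were tested. Of all tested genes, edgeR called 2.18% higher and 3.48% lower at 12 h. Those shares were 4.48% and 5.24% at 6 h, and 5.94% and 7.41% at 24 h. At 12 h 0 of the 22 were called by edgeR, 2 in each direction had an unadjusted p under 0.05, and DESeq2 called 0 higher and 1 lower. At 6 h 1 was higher and 2 were lower, while DESeq2 called 3 higher and 2 lower, and 6 and 3 had an unadjusted p under 0.05. The docking protein gene Irs1 fell from 7.26 to 8.17 CPM in DMSO to 3.30 to 5.49 CPM (-0.75, adjusted p = 0.011) and the regulatory subunit gene Pik3r1 fell by 0.19 (adjusted p = 0.0292). At 24 h 1 was higher, the catalytic subunit gene Pik3ca at 0.17 (adjusted p = 0.0295), and 1 lower, the docking protein gene Irs2 at -0.25 (adjusted p = 0.0315), which the naming rule did not pick and which is named after its value was seen. Leaving out DMSO replicate 2 (0.0838) or 3 (0.0875) ended the Pik3r1 call, as did leaving out riociguat 6 h replicate 1 (0.0696) or 2 (0.134). The Pik3ca call ended with DMSO replicate 1 (0.0551) or 3 (0.0898) left out, and with riociguat 24 h replicate 1 (0.0638) or 2 (0.0742) left out.

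Of 16 genes known to respond to FOXO factors or to encode them, Insr and Irs2 among them, 1 was higher and 1 lower at 12 h. The counts were 2 and 1 at 6 h, and 3 and 3 at 24 h. Of all tested genes, 2.18% were higher and 3.48% lower at 12 h. Those shares were 4.48% and 5.24% at 6 h, and 5.94% and 7.41% at 24 h. DESeq2 called 2 and 1, 2 and 1, and 3 and 3 of the list at 12 h, 6 h and 24 h. Cited2, a transcriptional coregulator gene, fell at 12 h from 94.1 ± 1.25 to 70.5 ± 3.75 CPM (-0.42, adjusted p = 0.000366). At 24 h Cited2 was lower by 0.20 (adjusted p = 0.0405), a call lost under 12 of 17 settings. Bcl6, a repressor gene, rose by 0.49 at 24 h (adjusted p = 0.00111) and by 0.32 at 12 h (adjusted p = 0.0405), the latter lost under 7 of 17 settings, with an adjusted p of up to 0.166 without DMSO replicate 3. Foxo3, itself a FOXO factor gene, fell by 0.20 at 6 h (adjusted p = 0.0214) and 0.22 at 24 h (adjusted p = 0.00805), lost under 4 and 2 of 17 settings, with an adjusted p of up to 0.103 and 0.0633. Sod2, the mitochondrial superoxide dismutase gene, rose by 0.35 at 6 h (adjusted p = 0.00295) and 0.34 at 24 h (adjusted p = 0.00273). At 24 h the cell cycle inhibitor gene Cdkn1b was higher by 0.34 (adjusted p = 0.0117), lost without DMSO replicate 2 (0.0747) or 3 (0.0515). These genes moved in both directions at 12 h, 6 h and 24 h, and the list's median log2 fold change was 0.08, 0.08 and -0.11.

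The genes most like each tested gene were taken as the 3 with the highest Pearson r of log2 CPM over the 12 libraries, among tested genes with a mean of at least 5 CPM. The libraries share their 4 groups, so these are descriptions. Igf1r was most like Cpd (r = 0.966), Tead1 (0.964) and Ilk (0.959), and Igfbp7 most like Akt1 (0.957), Tm2d2 (0.956) and Trmt1 (0.954). The genes most like Igfbp2 were 3 that hepatocytes express, Apoa2 (0.969), Rbp4 (0.968) and Mup11 (0.962). Igfbp3 was most like Kif11 (0.951), Melk (0.944) and Tacc3 (0.921), all genes of dividing cells, and Igfbp5 like Cenpe (0.943), also a mitotic gene, Sumo3 (0.922) and Cnpy4 (0.916). Igfbp4 was most like Fam53b (0.951), Mmrn2 (0.950) and Zfp358 (0.946). For Igf1 the leading genes were Atp1b1 (0.901), Marveld2 (0.875) and Has2 (0.857), and for Igfbp6 Hikeshi (0.839), Mepce (0.830) and Bcl7c (0.821).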

How the data were processed

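Bulk RNA sequencing of 12 libraries in 4 groups of 3 was analysed. The authors deposited expected counts per gene in 1 table, and every value was whole. Salmon, fastp, FastQC and DESeq2 are listed with GRCm38 as build, per the submitters' processing notes, without versions, roles or order. Salmon shares reads between similar transcripts, so overlapping genes are uncertain, and the sources used here do not say how strand was handled. Of 53452 gene IDs, 53355 matched a symbol.

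edgeR 4.0.16 in R 4.3.3 fitted all 12 libraries with group as the only term (filterByExpr, TMM factors, glmQLFit without the robust option, two-sided glmQLFTest). This kept 16036 genes. P-values were adjusted by Benjamini-Hochberg over all tested genes of each of the 6 comparisons, with a threshold of 0.05. The biological coefficient of variation was 0.0798, with 8 residual degrees of freedom. Standard errors are the log2 fold change divided by the square root of F. Library totals of 12953096 to 27358893 set the precision, which is lowest for Igfbp1, Igfbp2 and Igf1. No pair of libraries within a group agreed within sampling noise (chi-square per degree of freedom of 4.08 to 16.0). The highest values were those of DMSO replicate 1, at 12.3 against replicate 2 and 16.0 against replicate 3. DMSO replicates 2 and 3 gave 4.08, and pairs within riociguat groups 4.54 to 7.93. DMSO replicate 1 is part of all 3 comparisons with DMSO. The fit was also run on simulated counts with known changes. No simulated library was made to stand apart from its group, so that run says nothing about DMSO replicate 1.

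Groups were taken from the labels. The alternatives were RLE size factors, no low-count filter, DESeq2 1.42.0, only the 6 libraries compared, the replicate number as a block, leaving out each of the 12 libraries, and the longest transcript in place of merged exons. GENCODE vM21 (GRCm38) gave exon lengths and positions. The genes and lists were chosen with earlier results of these data known. The text names all 9 genes of the set, the IGF system and growth hormone lists, from the IGF1R signalling and FOXO lists the genes called at 12 h and up to 5 by smallest p at 6 h and 24 h, and the 3 genes most like each tested gene. Of these, 1 gene is not reported here. The ratios of Igf1r to Insr and of Igfbp2 to hepatocyte markers were added after seeing the data. Proteins were not analysed here.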

Additional observations from a re-analysis of the deposited data

How the results depend on the processing

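Of 16 calls among the 8 tested genes over the 6 comparisons, 7 kept their side of the threshold under all 17 alternatives, and 44 of the 272 refits of these calls ended a call. None reversed. Of 544 refits of the 32 uncalled results, 9 passed and 14 changed sign without passing. For the other named genes, 91 of 459 refits ended one of 27 calls, 13 of 912 refits of 54 uncalled results passed, and 15 changed sign.

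The 2 genes of the set called at 12 h became 1 with RLE size factors, and the 1 called at 6 h became 2 with no low-count filter and 2 with DESeq2. From 12 h to 24 h of riociguat the 1 gene called became 3 with no low-count filter and 3 with DESeq2, and over all genes 494 calls became 838 with no filter. At 12 h the split of all calls was 349 higher and 558 lower, and 689 and 594 with no filter. Leaving out a library in turn gave 1 to 2 called genes of the set at 12 h, 0 to 1 at 6 h, 2 to 6 at 24 h, 1 to 2 from 6 h to 12 h, 1 to 2 from 12 h to 24 h and 3 to 6 from 6 h to 24 h. The count of 2 at 24 h, without riociguat 24 h replicate 1, was Igf1r and Igfbp1 (adjusted p = 0.0418). Igfbp2, Igfbp4, Igfbp5 and Igfbp7 were not called in that fit. Igfbp1 entered such fits through its highest libraries, so its calls there are no further support for a fall. Over all genes, leaving out a library gave 510 to 1262 of 907 calls at 12 h, 955 to 1852 of 1559 at 6 h and 1395 to 2566 of 2141 at 24 h. It gave 596 to 1048 of 976 from 6 h to 12 h and 318 to 551 of 494 from 12 h to 24 h. Where a group was left with 2 libraries, the fit shared its spread with the other groups. The causes of these shifts were not tested.

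With the replicate number as a block, 1 gene of the set was called at 12 h, since Igfbp7 no longer passed (adjusted p = 0.0750), and 1 from 6 h to 12 h, since Igf1 did not (adjusted p = 0.0639). Over all genes the block gave 793 calls at 12 h, 1348 at 6 h and 1944 at 24 h, and 842, 443 and 2208 between exposures. Pairing by replicate number was not established. Correlations of deviations from group means between same-numbered libraries ran from -0.136 to 0.0843. At 24 h against DMSO and from 6 h to 12 h each library correlated best with its own number, a hint from the data only.

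Depth limited Igfbp1, with 0 to 19 counts per library, and to a lesser degree Igfbp2 and Igf1.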
